A study of Mus musculus with 27 samples.

Results

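Setdb1 deletion was examined under a block of the MAPK kinase MEK, by comparing 2 RNA-seq libraries labelled 4OHT + PD0325901 with 2 labelled PD0325901 alone. These 4 libraries were chosen by their labels, out of 27 in the study, and all genes measured in them were used. Every library came from Setdb1 cKO iMEFs, an immortalized line of mouse embryonic fibroblasts with conditional Setdb1 alleles, grown as 1 clone. The 2 libraries of the 4OHT + PD0325901 group came from cells that received 4-hydroxytamoxifen (4OHT), which triggers the deletion, were harvested at day 6, and were given the MEK inhibitor PD0325901 at 1 µM for the last 24 h. The 2 libraries of the PD0325901 group came from cells that received the same inhibitor for 24 h and no 4OHT. The same experiment holds 2 untreated libraries and 2 libraries of cells at 4OHT day 6 without inhibitor, and these 4 gave the effect of Setdb1 deletion without the block, with no library shared between the comparisons. Its other 2 libraries, of cells given the histone deacetylase inhibitor TSA, entered the estimate of the spread, the joining of loci and the choice of genes tested. They entered no comparison. No 4OHT-treated cells without conditional alleles were analysed here, so exposure to 4OHT and loss of Setdb1 cannot be told apart.

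Setdb1 methylates histone H3 at lysine 9 (H3K9me3) and in this way helps to keep endogenous retroviruses (ERVs) silent. When double-stranded RNA or DNA is sensed in a fibroblast, transcription factors of the Irf family drive type I interferon (IFN), and IFN signals through Jak kinases and the transcription factors they activate to a large set of antiviral genes. MEK is the kinase that activates ERK in the MAPK cascade, and ERK controls immediate-early genes, Ets-family factors and the feedback inhibitors Dusp6, Spry and Spred. The comparison addresses which responses to Setdb1 loss remain while this cascade is blocked. The inhibitor was present only for the last 24 h before harvest at day 6. Transcripts that rose before the block and persisted cannot be told apart from those that rose under it.

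Depth was computed as 10.9 to 12.8 M fragments per library over the 8 libraries compared. FPKM scales the fragments of a gene to its transcript length and to the size of the library, so levels can be compared between genes per length. Replicates differed beyond counting error in all groups but by unlike amounts, with a variance over that of counting of 10.4 for PD0325901, 15.6 for 4OHT + PD0325901, 11.4 for 4OHT day 6 and 1.52 for the untreated pair. The untreated pair therefore lowers the shared estimate of the spread. No source states that replicates were separate cultures, so p-values measure only the spread between these libraries, and an exact permutation test of 2 against 2 cannot go below a p of 0.333. The title written inside the data of PD0325901 replicate 2 names a 4OHT_PD library, whereas its label gives PD0325901. The label was followed, and the IFN genes of that library lay close to those of PD0325901 replicate 1, as their values below show. Setdb1 itself (chr3:95127447-95161124, mm9) had 5.34 and 5.56 FPKM in the PD0325901 libraries and 8.76 and 10.1 FPKM in the untreated ones. It was listed at 0 in both 4OHT + PD0325901 libraries and in 4OHT day 6 replicate 1, and at 5.30 FPKM in 4OHT day 6 replicate 2. An exact 0 in these data can be a failed estimate, as Hmgcs1, an enzyme that every cell uses to make cholesterol, was listed at 0 in all libraries, so the Setdb1 values do not check the deletion.

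Fibroblast identity was checked with markers, and 9 of 10 fibroblast markers had at least 1 FPKM in all 4 libraries. Their summed level was 4710 and 5160 FPKM in the PD0325901 libraries and 3003 and 3081 FPKM in the 4OHT + PD0325901 libraries. Of 11 haematopoietic markers, 5 were at 0 in all 4 libraries, among them the T-cell gene Cd3e. The pan-leukocyte gene Ptprc reached at most 0.0158 FPKM, and Cd68, a lysosomal gene, ranged from 3.21 to 14.1 FPKM. The summed level of the haematopoietic list was 4.69 and 8.16 FPKM with PD0325901 and 6.80 and 15.3 FPKM with 4OHT + PD0325901.

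With MEK blocked, Setdb1 deletion raised 421 of 11529 genes tested (3.65%) and lowered 166 (1.44%), where a gene was called at an adjusted p under 0.05 (limma, Benjamini-Hochberg over all genes) and a change of at least 2-fold. The 10 highest by the rule for naming genes were all members of the IFN lists, and the 10 lowest included the proteoglycans Aspn and Dcn. Without the inhibitor, 613 genes rose (5.32%) and 729 fell (6.32%), and these became 386 and 448 without untreated replicate 1 and 400 and 417 without untreated replicate 2. The median log2 fold change over all genes was 0.09 with the inhibitor and 0.00 without it, and scaling by median ratios moved the first to -0.02. That scaling changed the split with the inhibitor to 370 higher and 206 lower, and quantile normalization changed it to 311 and 220. A fit of the 4 libraries alone called 203 and 33 genes. The count without the filter on low values was 274 higher and 79 lower, without 4OHT + PD0325901 replicate 2 it was 265 and 98, and without PD0325901 replicate 2 the lower genes numbered 91.

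Genes called in both comparisons were a minority of those called without inhibitor, in either direction. Of the 613 genes that rose without inhibitor, 260 (42.4%) were also called higher with it, and these 260 were 61.8% of the 421. Of the 729 genes that fell without inhibitor, 103 (14.1%) were also called lower with it, which was 62.0% of the 166. Of the 613, 566 had a log2 fold change above 0 with the inhibitor, with a median of 1.01 over the 613. Of the 729, 594 had one below 0, with a median of -0.50 over the 729. Over all genes, 6860 of 11529 were above 0 with the inhibitor. A gene called in one comparison and not in the other is not thereby shown to differ. The difference between the Setdb1 effect with and without PD0325901, tested itself, was called higher for 67 genes (0.581%) and lower for 21 (0.182%). It was called for 47 of the 626 genes that fell only without the inhibitor and for 11 of the 353 that rose only without it. Across genes the log2 fold changes of the comparisons had a Pearson r of 0.68 and a Spearman rho of 0.58 over 11529 genes, which are not independent replicates.

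**Figure D1:**
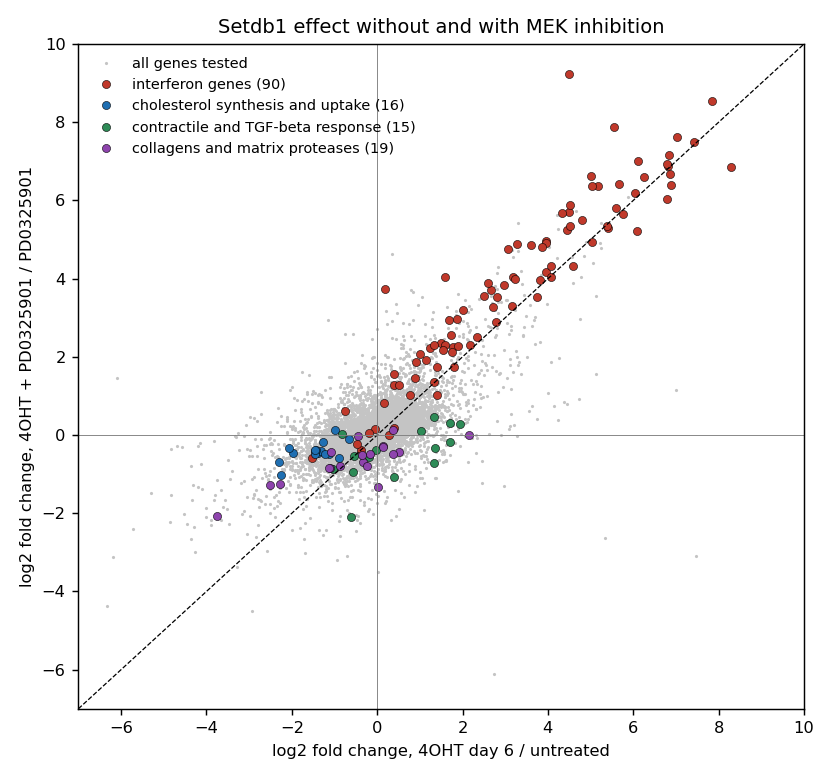
Each point is a gene, with the log2 fold change of Setdb1 deletion without inhibitor on the x axis and with PD0325901 on the y axis, the dashed line marks equal change, and contractile genes are green and collagens purple. The 90 interferon genes (red) lie mostly near the line in the upper right, with medians of 3.11 and 3.92, and the 16 cholesterol genes (blue) lie further below 0 on the x axis (median -1.42) than on the y axis (median -0.44).

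The IFN genes rose with MEK blocked as they did without inhibitor. Of 107 members of 6 IFN lists, 90 features were tested with MEK blocked, 81 rose and 0 fell, against 3.65% and 1.44% of all genes, and their median log2 fold change was 3.92 against 0.09 over all genes. Without inhibitor 71 rose and 1 fell, against 5.32% and 6.32% of all genes, with a median of 3.11, and all 71 were among the 81. A gene could enter the test through libraries with 4OHT alone, and members near 0 without 4OHT could be called only higher. Of the IFN genes called higher with MEK blocked, 4 were listed at 0 in both PD0325901 libraries. The lists were chosen with earlier results of these data known, so the counts are descriptive. The difference of effects was called for 0 of the 90, and its median was 0.67 against 0.10 over all genes. Counted by limma, the rising genes ranged from 64 without the filter on low values to 81 over the alternatives tried. The median for the lists was 3.59 in 4OHT + PD0325901 replicate 1 and 4.04 in replicate 2, each against the PD0325901 mean, and 2.30 and 3.68 in the 4OHT day 6 libraries against the untreated mean. The 4OHT day 6 libraries thus lay further apart from each other than the 4OHT + PD0325901 libraries did. In 86 of the 90 features the libraries with and without 4OHT did not overlap under the inhibitor, which held for 50.4% of all genes.

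The genes with the highest fold changes were IFN-stimulated genes, and 3 that hold a recognizable IFN element are shown here as promoters. The IFN-stimulated response element (ISRE) is the promoter site through which type I IFN acts, and its core was searched as GAAA, any 2 bases and GAAA again, on both strands. The promoters run from 250 bases before to 50 after the gene start in RefSeq (GRCm38.p6), are written 5′ to 3′ on the strand of the gene, and carry the core in capitals. The genes are the 3 highest with exactly 1 entry and a match, Rsad2 (chr12:26456403-26456702, minus strand), Ddx60 (chr8:61927837-61928136, plus strand) and Ifit1 (chr19:34640639-34640938, plus strand). They ranked 3, 12 and 14 by fold change under the naming rule, and genes with several entries were not considered.
Rsad2: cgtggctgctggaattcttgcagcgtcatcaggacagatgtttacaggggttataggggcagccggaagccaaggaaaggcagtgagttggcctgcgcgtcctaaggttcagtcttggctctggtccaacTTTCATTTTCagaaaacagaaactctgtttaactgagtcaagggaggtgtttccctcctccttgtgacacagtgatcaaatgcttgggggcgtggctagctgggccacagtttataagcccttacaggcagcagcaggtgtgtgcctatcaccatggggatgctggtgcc
Ddx60: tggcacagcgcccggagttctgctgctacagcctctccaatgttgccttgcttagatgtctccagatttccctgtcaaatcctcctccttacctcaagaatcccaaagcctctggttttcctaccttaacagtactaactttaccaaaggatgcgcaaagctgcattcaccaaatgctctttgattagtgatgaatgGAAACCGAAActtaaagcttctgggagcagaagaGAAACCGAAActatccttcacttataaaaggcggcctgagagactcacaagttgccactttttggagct
Ifit1: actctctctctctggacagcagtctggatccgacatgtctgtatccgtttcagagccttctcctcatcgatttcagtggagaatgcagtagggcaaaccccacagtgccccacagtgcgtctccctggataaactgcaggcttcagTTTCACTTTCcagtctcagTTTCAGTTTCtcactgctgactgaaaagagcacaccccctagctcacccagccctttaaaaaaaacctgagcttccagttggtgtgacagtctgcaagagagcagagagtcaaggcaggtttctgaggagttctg
Rsad2 held 1 match, from -120 to -111 relative to the gene start, and Ddx60 and Ifit1 held 2 each. The core was present in 65 of 302 (21.5%) genes called higher that had an entry, in 3 of 108 (2.78%) called lower, in 29 of 69 (42.0%) IFN genes and in 331 of 8829 (3.75%) of all genes tested. It was held by 3.44% of the 32851 promoters that the table lists. A match describes the letters of this window and was not tested as a binding site.

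Nucleic acid sensors rose together, with 9 of 11 called higher and 0 lower with MEK blocked and the same counts without. Ddx58 (RIG-I), a sensor of viral RNA ends, had 7.13 and 8.92 FPKM with PD0325901 and 72.1 and 87.1 FPKM with 4OHT + PD0325901. Its log2 fold change was 3.30 ± 0.28 (SE, adjusted p = 0.000444), with no overlap of the groups. Ifih1 (MDA5), which senses long double-stranded RNA, went from 2.37 and 1.92 FPKM to 33.9 and 40.04 FPKM, a log2 fold change of 4.05 ± 0.40 (SE, adjusted p = 0.000912). Dhx58 (LGP2), a helper of both, was under 1 FPKM with PD0325901, at 0.625 and 0.503, and reached 48.7 and 62.0 FPKM after deletion. The widest gap among sensors was that of Zbp1 (chr2:173032114-173044423, mm9), which binds Z-form nucleic acids, with 0.315 and 0.903 FPKM with PD0325901 and 96.1 and 236 FPKM with 4OHT + PD0325901, a log2 fold change of 7.87 ± 0.80 (SE, adjusted p = 0.00101). Without inhibitor Zbp1 had 1.38 and 2.11 FPKM in untreated and 35.3 and 202 FPKM in 4OHT day 6 cells, so the replicates after deletion differed more than those under the block. Adar, the enzyme that edits double-stranded RNA, rose by 2.52 ± 0.28 (log2, SE). The adaptors did not pass the test, and Mavs had 10.7 and 10.1 FPKM with PD0325901 and 10.1 and 11.3 FPKM with 4OHT + PD0325901, whereas Tmem173 (STING) had 14.0 and 19.6 FPKM before and 23.03 and 27.9 FPKM after deletion.

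Of 13 IFN ligands, receptors and transcription factors, 8 rose with MEK blocked and 0 fell, against 6 and 0 without inhibitor. Ifnb1 (chr4:88167929-88168698, mm9), the beta interferon, was listed at 0 in both PD0325901 and both untreated libraries. It had 3.41 and 2.51 FPKM in the 4OHT + PD0325901 libraries and 1.01 and 2.03 FPKM in those of 4OHT day 6. Ifna4, an alpha interferon, was likewise listed at 0 without 4OHT and had 1.63 and 1.44 FPKM with 4OHT + PD0325901. No fold is given against groups listed at 0, and 16 of the 421 genes called higher, 4 of them IFN genes (Ifnb1, Ifna4, Irf8 and Ifi27l2a), were listed at 0 in both PD0325901 libraries. The chains of the IFN receptor, which are made constantly, did not pass the test, with 8.87 and 10.5 FPKM for Ifnar1 with PD0325901 and 7.21 and 7.63 FPKM after deletion. Ifnar2 had 25.1 and 22.7 FPKM before and 28.2 and 25.9 FPKM after deletion. Irf7, the factor that amplifies IFN transcription, had 4.75 and 4.02 FPKM with PD0325901 and 266 and 321 FPKM with 4OHT + PD0325901, a log2 fold change of 6.03 ± 0.39 (SE, adjusted p = 0.000174). Irf3, the constitutive factor downstream of the sensors, had 7.81 and 8.69 FPKM before and 9.78 and 8.49 FPKM after deletion and did not pass the test. Irf1 behaved unlike Irf7 in its starting level, with 19.4 and 31.9 FPKM under PD0325901 alone and 49.5 and 49.5 FPKM in untreated cells. It rose with MEK blocked, to 62.8 and 85.7 FPKM (log2 fold change 1.56 ± 0.37 SE, adjusted p = 0.0345), and was at 43.2 and 98.4 FPKM at 4OHT day 6, where it did not pass the test (adjusted p = 0.465). The difference of effects for Irf1 did not pass either (adjusted p = 0.322). The calls of Irf1 and Ifna4 with MEK blocked were lost when any 1 of the 4 libraries was left out, with an adjusted p (limma) of up to 0.142 and 0.0918.

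Antiviral effectors gave the highest values, and 33 of 34 rose with MEK blocked, with a median log2 fold change of 5.28. Mx2 (chr16:97757688-97782508, mm9), a dynamin-like GTPase that traps viral particles, had 0.0655 and 0.100 FPKM with PD0325901 and 56.96 and 81.0 FPKM with 4OHT + PD0325901. That log2 fold change of 8.55 ± 0.68 (SE, adjusted p = 0.000364) was the highest by the rule for naming genes. Rsad2 (viperin; chr12:27127608-27141317, mm9), whose promoter is shown above, makes a nucleotide that stops viral polymerases, and had 0.101 and 0.268 FPKM before and 37.0 and 76.9 FPKM after deletion. Its log2 fold change was 7.62 ± 0.67 (SE, adjusted p = 0.000534). Oasl2, of the family of oligoadenylate synthases that arm RNase L or related sensors, had 1.86 and 2.93 FPKM and 270.3 and 324 FPKM, a log2 fold change of 6.93 ± 0.40 (SE, adjusted p = 0.000139). Oas1b and Oasl1 rose by 7.01 ± 0.55 and 6.69 ± 0.60 (log2, SE), and the uncharacterized IFN-inducible Ifi44 by 7.50 ± 0.55. Ifit1, a protein that binds viral RNA lacking the host cap, had 4.29 and 4.41 FPKM with PD0325901 and 389 and 351 FPKM with 4OHT + PD0325901, a log2 fold change of 6.38 ± 0.34 (SE, adjusted p = 0.000133). Bst2 (tetherin), which holds budding virus at the membrane, was the effector with the highest level, at 86.0 and 83.9 FPKM before and 1612 and 1433 FPKM after. In the same range, Ifitm3 went from 172 and 209.6 to 1158 and 1083 FPKM. The exception was Ifitm1, a relative of Ifitm3, with 1.24 and 2.21 FPKM and 1.21 and 0.954 FPKM (adjusted p = 0.386). Ifitm1 was the 1 IFN gene called lower without inhibitor, from 6.50 and 5.21 to 1.82 and 2.09 FPKM. That call was lost when any 1 of its 4 libraries was left out (adjusted p up to 0.127), with no filter and under quantile normalization.

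**Figure D2:**
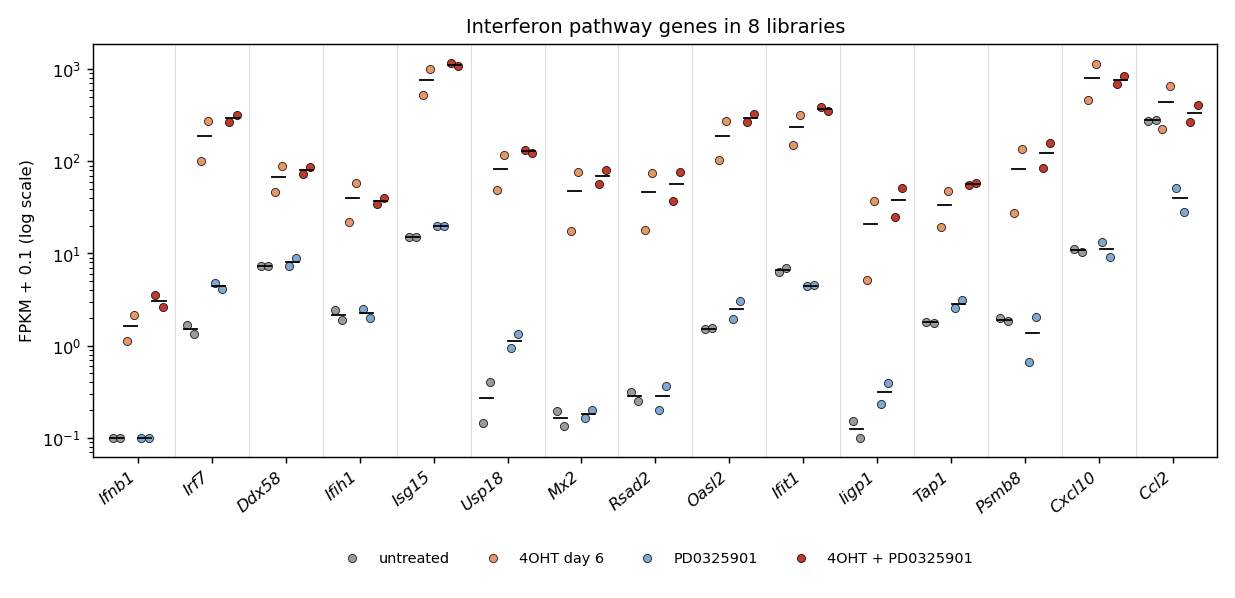
FPKM plus 0.1 on a log scale for 15 interferon pathway genes and chemokines, with 1 point per library, 2 libraries per group, and a bar at the group mean. Both red points (4OHT + PD0325901) lie above both blue points (PD0325901) for every gene plotted, as for Mx2 (56.96 and 81.0 against 0.0655 and 0.100 FPKM).

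All 9 IFN-inducible GTPases rose with MEK blocked and without inhibitor. These proteins of the Gbp and Irg families attack vacuoles that hold pathogens. Iigp1 had 0.133 and 0.297 FPKM with PD0325901 and 24.9 and 51.2 FPKM with 4OHT + PD0325901, a log2 fold change of 6.88 ± 0.80 (SE, adjusted p = 0.00200). Irgm1, a regulator of the family, started from a higher level, 31.8 and 28.3 FPKM, and reached 349.5 and 342 FPKM. The Gbp genes lie in clusters of similar copies, and Gbp2 with Gbp2b, Gbp3 with Gbp7 and Gbp4 with Gbp9 were measured as joined loci, so the share of each copy is uncertain.

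The 6 genes of Isg15 conjugation, a ubiquitin-like pathway, rose with MEK blocked, and 5 did without inhibitor. Isg15 (chr4:155573533-155574927, mm9) had 19.997 and 19.6 FPKM with PD0325901 and 1174 and 1069 FPKM with 4OHT + PD0325901, a log2 fold change of 5.82 ± 0.28 (SE, adjusted p = 7.86e-05). Ube2l6, its conjugating enzyme, went from 4.80 and 5.95 to 152 and 169 FPKM. Usp18, which takes Isg15 off its targets and dampens IFN signalling, went from 0.835 and 1.23 to 133 and 123 FPKM (log2 fold change 6.85 ± 0.51 SE, adjusted p = 0.000310). Uba7, the activating enzyme, was the 1 gene of this list called only with MEK blocked, with 0.381 and 0.700 FPKM before and 6.78 and 9.87 FPKM after deletion (log2 fold change 3.74 ± 0.54 SE, adjusted p = 0.00505). Its level in untreated cells was 9.69 and 3.83 FPKM and at 4OHT day 6 4.42 and 10.9 FPKM, groups that overlap, and the difference of effects did not pass the test (adjusted p = 0.0870).

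Of 17 MHC class I features, 16 rose with MEK blocked and 12 without inhibitor, with median log2 fold changes of 2.35 and 1.68. In this pathway peptides cut by the immunoproteasome are pumped into the endoplasmic reticulum and loaded on class I molecules. Psmb8, an immunoproteasome subunit, had 0.571 and 1.97 FPKM with PD0325901 and 85.5 and 159 FPKM with 4OHT + PD0325901, a log2 fold change of 6.63 ± 0.75 (SE, adjusted p = 0.00165). Tap1, a chain of the peptide pump, went from 2.48 and 3.02 to 55.3 and 58.6 FPKM (log2 fold change 4.33 ± 0.35 SE, adjusted p = 0.000407). Nlrc5, the activator of class I transcription, went from 0.0968 and 0.0986 to 2.15 and 4.68 FPKM. Its call was lost without 4OHT + PD0325901 replicate 2 (adjusted p = 0.0540). B2m, the light chain, measured as 1 locus with Trim69, had the highest level, at 434 and 438 FPKM before and 1784 and 2377 FPKM after. The proteasome activators Psme1 and Psme2 were called only with MEK blocked, Psme1 going from 93.7 and 102 to 229 and 246 FPKM. In untreated cells Psme1 was at 158 and 152 FPKM, above both PD0325901 libraries, and at 4OHT day 6 it was at 172 and 238 FPKM. All 17 features had a larger log2 fold change with MEK blocked, though the difference was called for 0 of them. For 9 of the 17 both PD0325901 libraries lay below both untreated ones, which held for 38.6% of all genes. The heavy chain genes are near-identical copies, and the values of H2-K1 with H2-K2 and of H2-D1 with the H2-Q genes cannot be split.

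Chemokines and cytokines were less uniform, with 5 of 14 called higher and 0 lower with MEK blocked, against 3.65% and 1.44% of all genes. Cxcl10, an IFN-induced attractant of T cells, had 13.3 and 9.03 FPKM with PD0325901 and 692 and 836 FPKM with 4OHT + PD0325901, a log2 fold change of 6.11 ± 0.37 (SE, adjusted p = 0.000139). Ccl5 rose from 10.6 and 11.7 to 234 and 489.6 FPKM, and Il6, an inflammatory cytokine, from 0.249 and 0.158 to 6.80 and 7.15 FPKM. Ccl2, an attractant of monocytes, had 51.2 and 28.1 FPKM with PD0325901 and 269 and 407 FPKM after deletion (log2 fold change 3.12 ± 0.47 SE, adjusted p = 0.00601). Its untreated level, 273 and 283 FPKM, lay above both PD0325901 libraries, and the 4OHT day 6 values, 223 and 649 FPKM, lay on both sides of it. Ccl7 was the fifth, and 3 others, Ccl9, Cxcl5 and Cxcl12, were called lower without inhibitor only. For Cxcl5 the PD0325901 libraries, at 1.00 and 0.408 FPKM, were already below the untreated ones, at 5.17 and 6.18 FPKM. The differences of effect for these genes did not pass the test.

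The genes that the study listed as induced at day 5 after 4OHT were chosen on other libraries of the same line, so their direction here is not independent evidence. Of 244 names, 219 features were tested here. With MEK blocked 136 rose and 0 fell, against 3.65% and 1.44% of all genes, with a median log2 fold change of 1.97. Without inhibitor 121 rose and 7 fell, against 5.32% and 6.32% of all genes, with a median of 1.58. Among the 160 outside the IFN lists, 78 rose with MEK blocked and 66 without, 53 of them in both. Cd209c, of the family of C-type lectins, had 0.648 and 0.606 FPKM with PD0325901 and 28.2 and 33.6 FPKM with 4OHT + PD0325901. It stood at 0.579 and 0.580 FPKM untreated and 21.7 and 29.9 FPKM at 4OHT day 6, so the libraries with 4OHT were alike with and without the block. Sprr1a, a protein of the cornified envelope of skin, showed unlike levels, with 6.36 and 0.508 FPKM with PD0325901 and 46.6 and 37.2 FPKM with 4OHT + PD0325901. Without inhibitor it had 13.3 and 15.3 FPKM untreated and 474 and 484 FPKM at 4OHT day 6. Its log2 fold changes were 4.40 and 5.06, and the difference did not pass the test (adjusted p = 0.846). The rise of Sprr1a with MEK blocked was not called without either 4OHT + PD0325901 library (adjusted p up to 0.0691). Tnfrsf23, a decoy receptor of the Tnf family, went from 1.72 and 1.80 to 14.2 and 24.8 FPKM with MEK blocked. Lgals3, a galectin, was called only with MEK blocked, from 106 and 133 to 323 and 325 FPKM, while its change without inhibitor, from 195 and 206 to 362 and 394 FPKM, passed the p threshold but not the 2-fold limit. Of 13 genes called only without inhibitor outside the IFN lists, Krt19, a keratin, had 5.97 and 5.28 FPKM untreated and 42.7 and 17.3 FPKM at 4OHT day 6, against 62.6 and 26.3 FPKM with PD0325901 and 80.8 and 58.3 FPKM with 4OHT + PD0325901. Its call was lost without untreated replicate 1 or 2 (adjusted p = 0.0510 and 0.0640). The difference of effects was called for 3 of the 219, Apol6, Lipg and Prph.

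ERVs were measured from transcribed loci without gene annotation that lay inside elements of the study's lists, as FPKM over the summed length of a family. VL30 is a family of retrovirus-like elements whose long terminal repeats fall into classes by their U3 region, which holds the promoter. VL30 U3 class I had 0.00868 and 0.0253 FPKM with PD0325901 and 0.924 and 1.22 FPKM with 4OHT + PD0325901. Without inhibitor it had 0.477 and 0.459 FPKM untreated and 19.9 and 25.2 FPKM at 4OHT day 6. Deletion raised the class with MEK blocked by 3.32 ± 0.30 (SE, adjusted p = 0.000534), on the scale log2(FPKM + 0.1), which understates changes near 0.1 FPKM. The level reached with MEK blocked was above that of untreated cells and far below that of 4OHT day 6, with no overlap between any of these groups. The difference of effects was -1.99 and missed the threshold (adjusted p = 0.0825). That value rests on levels under the pseudocount in the PD0325901 libraries, and the ratio of group means was 63.2 with MEK blocked and 48.2 without. The PD0325901 libraries held only 22 and 63.7 fragments of the class, so the ratio with MEK blocked is uncertain. Of 71 class I elements, 1 and 3 had a transcribed locus in the PD0325901 libraries, 18 and 23 in the 4OHT + PD0325901 libraries, 11 and 11 in the untreated and 53 and 53 in the 4OHT day 6 libraries. An element without a locus in a library may still be transcribed below what the assembly could report.

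A pair of class I elements showed the same order of groups. The element at chr11:86625241-86629897 (mm9) had 0.380 and 0.256 FPKM with PD0325901, 12.9 and 9.99 FPKM with 4OHT + PD0325901, 8.44 and 8.25 FPKM untreated and 149 and 148 FPKM at 4OHT day 6. At chr2:75476160-75481002 (mm9) the element was listed at 0 and 0.184 FPKM with PD0325901, and had 7.64 and 8.05 FPKM with 4OHT + PD0325901, 3.80 and 4.16 FPKM untreated and 92.0 and 102 FPKM at 4OHT day 6. These were the elements with the highest level in the 4OHT + PD0325901 libraries and were chosen after their values were seen.

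Classes III and IV also rose with MEK blocked but stayed under 0.3 FPKM. Class III had 0.201 and 0.202 FPKM with 4OHT + PD0325901, against 5.18 and 5.73 FPKM at 4OHT day 6, and class IV had 0.287 and 0.198 against 4.93 and 6.72 FPKM. On the log2(FPKM + 0.1) scale their effects were larger without inhibitor, with a difference of -3.81 ± 0.40 (SE, adjusted p = 0.0115) for class III and -4.26 ± 0.46 (SE, adjusted p = 0.0121) for class IV. Levels with PD0325901 alone were under 0.1 FPKM in both classes, so that the pseudocount sets much of the fold. The ratios of group means were 90.1 with MEK blocked and 160.1 without for class III, and 6.77 and 273 for class IV. Class II was listed at 0 in all 4 inhibitor libraries. MMERVK10C, an ERV of another family, behaved unlike VL30, being listed at 0 in the PD0325901 and untreated libraries and at 0.0676 and 0.153 FPKM with 4OHT + PD0325901, close to the 0.0486 and 0.136 FPKM of 4OHT day 6. It did not pass the test (adjusted p = 0.0884). RLTR4 had 0.233 and 0.333 FPKM with PD0325901 and 0.408 and 0.433 FPKM with 4OHT + PD0325901 and did not pass it either (adjusted p = 0.351). IAPEz stayed under 0.001 FPKM in the 4 libraries.

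**Figure D3:**
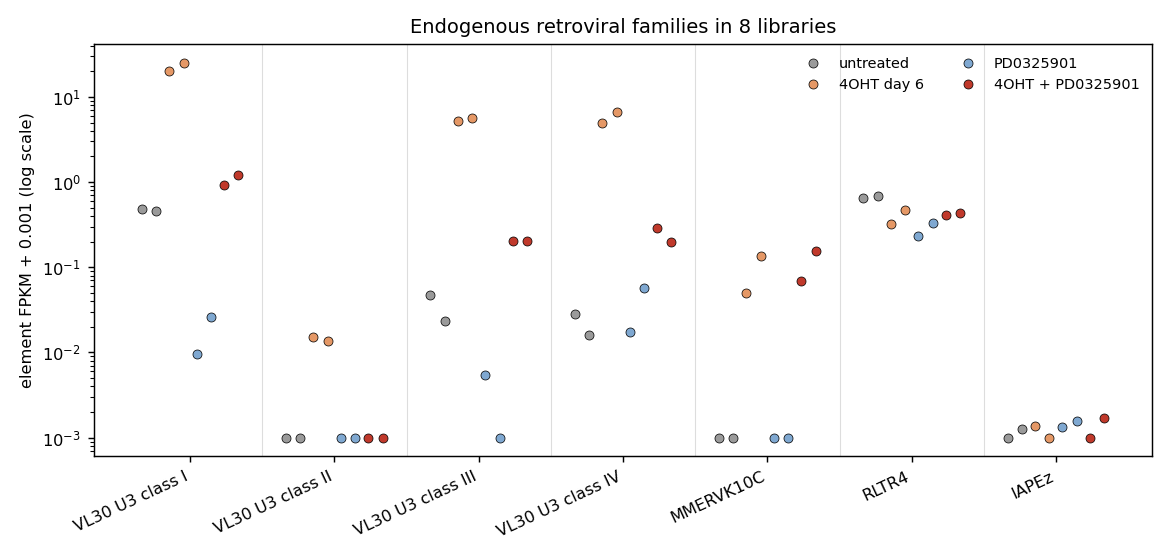
Element FPKM plus 0.001 on a log scale for 7 ERV families, with 1 point per library and 2 libraries per group. In VL30 U3 class I, III and IV the 4OHT + PD0325901 points (red) lie above the PD0325901 points (blue) and below the 4OHT day 6 points (orange), whereas in MMERVK10C red and orange overlap.

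MAPK targets were examined for their level under the inhibitor and for their response to Setdb1 deletion. Of 27 MAPK feedback and target genes, 18 were lower in both PD0325901 libraries than in both untreated ones, as were 38.6% of all genes. Dusp6, an ERK phosphatase made in response to ERK activity, had 44.5 and 46.6 FPKM untreated, 9.82 and 3.94 FPKM with PD0325901 and 5.43 and 6.81 FPKM with 4OHT + PD0325901. Etv4, an Ets factor induced by ERK, was under 0.3 FPKM in all 4 inhibitor libraries and had 13.8 and 15.3 FPKM untreated. After deletion 3 of the 27 rose with MEK blocked and 1 fell, against 3.65% and 1.44% of all genes. Dusp4, Etv4 and Areg rose, all at levels under 0.5 FPKM in the 4 libraries. Egr3 fell from 1.96 and 0.685 to 0.296 and 0.299 FPKM. None of these 4 calls was made with a pseudocount of 1. Etv4 was not called without either 4OHT + PD0325901 library or PD0325901 replicate 2 (adjusted p up to 0.0826), nor Egr3 without either 4OHT + PD0325901 library or PD0325901 replicate 1 (up to 0.117). The median log2 fold change of the list was -0.04. PD0325901 replicate 1 held more immediate-early transcripts than replicate 2, with Egr1 at 483 against 178 FPKM and Fos at 386 against 161 FPKM. Of 15 Ets and AP-1 factors, 0 were called by limma at the 2-fold limit, against 3.65% higher and 1.44% lower of all genes. Ets2 alone had an adjusted p under 0.05, at a log2 fold change of 0.64, as did 1078 of all 11529 genes in either direction.

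Among 26 factors of H3K9me3 and ERV silencing, 3 rose with MEK blocked and 0 fell, against 3.65% and 1.44% of all genes. Atf7ip, the partner that stabilizes Setdb1, had 10.0 and 12.7 FPKM with PD0325901 and 29.5 and 41.6 FPKM with 4OHT + PD0325901, a log2 fold change of 1.63 ± 0.22 (SE, adjusted p = 0.00381). The gene 2810474O19Rik (Resf1), which works with Setdb1, went from 10.1 and 16.3 to 32.1 and 58.3 FPKM (log2 fold change 1.74 ± 0.32 SE, adjusted p = 0.0125). The other call was that of Setdb2, measured as 1 locus with Phf11c, so it cannot be assigned to Setdb2 itself. The call of 2810474O19Rik was lost without 4OHT + PD0325901 replicate 2 and without PD0325901 replicate 1 (adjusted p up to 0.0610). Trim28, the corepressor that recruits Setdb1, had 96.7 and 86.2 FPKM before and 119 and 108 FPKM after deletion and did not pass the test. Dnmt1, which maintains DNA methylation, had 61.7 and 59.0 FPKM before and 49.7 and 58.5 FPKM after deletion and did not either. Of 20 germline genes that DNA methylation keeps silent, 14 did not reach the 1 FPKM limit. Another 4 were listed at 0 in a reassembled locus or missing, and 1 was not named in the data. The 1 tested, Brdt, was measured as 1 locus with Ephx4 and was not called.

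The cholesterol genes differed between the settings. Without inhibitor 13 of 16 fell after Setdb1 deletion and 0 rose, against 6.32% and 5.32% of all genes. Their median log2 fold change was -1.42 over the 16. With MEK blocked 1 fell, Insig1, and 0 rose, against 1.44% and 3.65% of all genes. The median there was -0.44 against 0.09 over all genes. In both 4OHT + PD0325901 libraries 13 of the 16 were lower than in both PD0325901 ones, against 17.7% of all genes. The level before deletion differed too, and all 16 were lower in both PD0325901 libraries than in both untreated ones, against 38.6% of all genes. Cyp51, a demethylase of sterol synthesis (chr5:4080674-4104697, mm9), had 169 and 165 FPKM untreated and 37.4 and 30.2 FPKM at 4OHT day 6. With PD0325901 it had 49.8 and 44.0 FPKM and with 4OHT + PD0325901 34.7 and 24.7 FPKM, so the libraries after deletion were close to each other while the starting levels were far apart. Its log2 fold changes were -2.31 without and -0.68 with inhibitor, and the difference was 1.63 ± 0.25 (SE, adjusted p = 0.0358). Nsdhl, another enzyme of the pathway, had 61.4 and 60.5 FPKM before and 15.6 and 13.3 FPKM after deletion without inhibitor and 18.2 and 15.3 FPKM before and 14.3 and 12.2 FPKM after deletion with it, a difference of 1.74 ± 0.20 (SE, adjusted p = 0.0126). Insig1, which holds the sterol sensor in the endoplasmic reticulum, fell from 26.6 and 25.2 to 13.6 and 11.9 FPKM with MEK blocked (log2 fold change -1.02 ± 0.20 SE, adjusted p = 0.0169). The call of Insig1 was lost without 4OHT + PD0325901 replicate 2 and without either PD0325901 library (adjusted p up to 0.0845). The difference of effects was called higher for 7 of the 16. Those 7 calls became 0 when either untreated library was left out, where the median difference was 1.01 or 1.06 against 1.06 with both, and 1 under median-ratio scaling.

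Of 15 contractile genes, 12 were higher in both PD0325901 libraries than in both untreated ones, against 26.5% of all genes. Acta2, the smooth muscle actin of myofibroblasts (chr19:34314826-34329863, mm9), had 46.9 and 46.5 FPKM untreated and 110.4 and 127 FPKM at 4OHT day 6. It had 819 and 773 FPKM with PD0325901 and 548 and 436 FPKM with 4OHT + PD0325901, where the change did not pass the test (adjusted p = 0.0943). The effect thus had unlike signs, 1.34 without and -0.70 with inhibitor, with a difference of -2.04 ± 0.32 (SE, adjusted p = 0.0376). Cnn1 (calponin), which binds actin, had log2 fold changes of 1.36 and -0.33 and a difference of -1.68 ± 0.18 (SE, adjusted p = 0.0115). Myl9, a myosin light chain, fell with MEK blocked, from 377 and 454 to 195 and 199.9 FPKM (log2 fold change -1.07 ± 0.16 SE, adjusted p = 0.00660), and had 37.5 and 39.0 FPKM before and 49.1 and 51.7 FPKM after deletion without inhibitor. Postn (periostin), a matrix protein, fell from 338 and 648 to 95.0 and 125 FPKM with MEK blocked (log2 fold change -2.10 ± 0.43 SE, adjusted p = 0.0207). Without PD0325901 replicate 2 the fall of Myl9 was -0.93, short of 2-fold (adjusted p = 0.0469), and Postn was not called, nor was it without either 4OHT + PD0325901 library (adjusted p up to 0.121). Of the 15 genes 0 rose and 2 fell with MEK blocked, against 3.65% and 1.44% of all genes. Without inhibitor 7 rose and 1 fell, against 5.32% and 6.32% of all genes. The difference was called lower for 3 genes, Acta2, Cnn1 and Myl9, and for 1 and 0 of the list without untreated replicate 1 and 2.

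**Figure D4:**
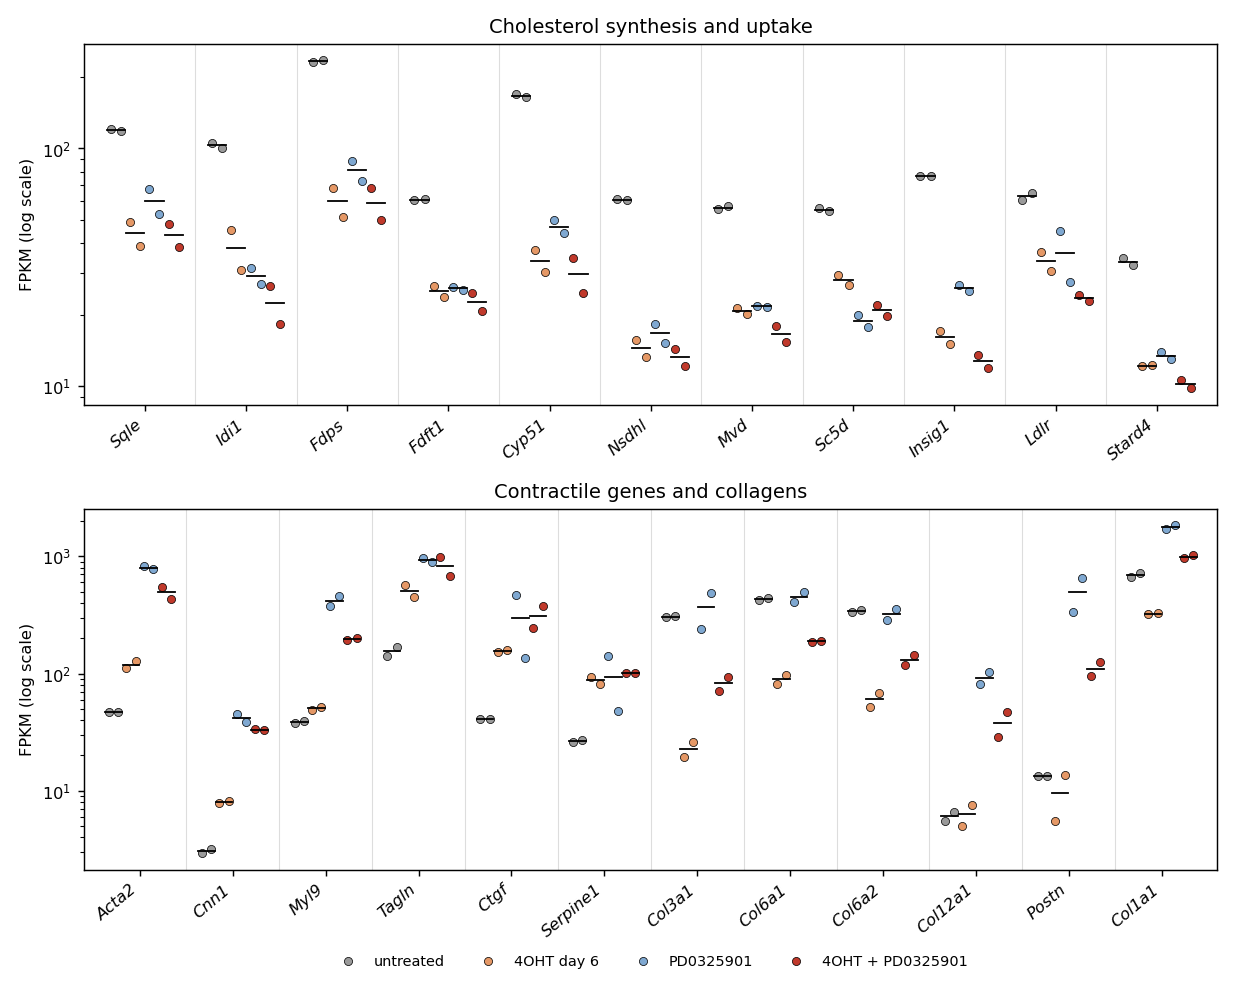
FPKM on a log scale for 11 cholesterol genes (top) and 12 contractile genes and collagens (bottom), with 1 point per library and a bar at the mean of each group of 2. Untreated points (grey) are the highest of each cholesterol gene, as for Cyp51 (169 and 165 FPKM), and the PD0325901 points (blue) are the highest for Acta2 (819 and 773 FPKM).

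Some collagens fell in both settings. With MEK blocked 4 of 19 collagens and matrix proteases were called lower and 0 higher, against 1.44% and 3.65% of all genes. The median log2 fold change of the 19 was -0.52. In both 4OHT + PD0325901 libraries 14 of the 19 were lower than in both PD0325901 ones, against 17.7% of all genes. Col3a1, a fibrillar collagen, had 241 and 490.1 FPKM with PD0325901 and 71.0 and 93.8 FPKM with 4OHT + PD0325901, a log2 fold change of -2.07 ± 0.37 (SE, adjusted p = 0.0116). Without inhibitor it had 302 and 308 FPKM untreated and 19.4 and 26.1 FPKM at 4OHT day 6. Col6a1 and Col6a2, chains of the microfibrillar collagen VI, fell by 1.25 and 1.29 on the log2 scale with MEK blocked and by 2.27 and 2.52 without. Col12a1 was called only with MEK blocked, going from 80.9 and 103 to 28.6 and 47.0 FPKM, and its levels without inhibitor, 5.53 and 6.55 FPKM untreated and 5.00 and 7.54 FPKM at 4OHT day 6, were far lower. Col3a1 and Col12a1 were not called without 4OHT + PD0325901 replicate 1 or without PD0325901 replicate 2, with an adjusted p of up to 0.0601 and 0.118. Col1a1, a main collagen of fibroblasts, had 1720.4 and 1841 FPKM before and 960.3 and 1016 FPKM after deletion, with an adjusted p of 0.00539 and a log2 fold change of -0.85, short of 2-fold. Of 10 fibroblast markers, 2 were called lower, Col3a1 and the receptor Pdgfrb, and 0 higher, against 1.44% and 3.65% of all genes. In both 4OHT + PD0325901 libraries 7 of the 10 were lower than in both PD0325901 ones, against 17.7% of all genes, and 2 were higher. The median log2 fold change of the markers was -0.85. Vim, an intermediate filament and 1 of the 2 higher, had 652 and 468 FPKM before and 713 and 709 FPKM after deletion. In bulk libraries fewer cells of a type and less RNA per cell cannot be told apart.

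Among the 10 genes with the lowest fold changes by the naming rule, Aspn (asporin), a small proteoglycan, had 12.6 and 27.8 FPKM with PD0325901 and 0.433 and 1.22 FPKM with 4OHT + PD0325901, a log2 fold change of -4.49 ± 0.58 (SE, adjusted p = 0.00298). In cells without inhibitor it was low throughout, at 0.758 and 0.828 FPKM untreated and 0 and 0.0382 FPKM at 4OHT day 6. Dcn (decorin), its relative, had 53.3 and 113 FPKM before and 10.7 and 14.8 FPKM after deletion with inhibitor (log2 fold change -2.61 ± 0.39 SE, adjusted p = 0.00578) and 11.3 and 11.7 FPKM before and 1.10 and 2.09 FPKM after deletion without. Ptprq, a receptor phosphatase, fell from 34.6 and 29.5 to 5.97 and 2.64 FPKM. Cxcl14, a chemokine of skin and stroma, fell from 54.6 and 47.7 to 10.4 and 3.83 FPKM with inhibitor and from 72.8 and 83.5 to 5.88 and 2.67 FPKM without. Bmp3, with 0.553 and 5.26 FPKM, and Cdh23, with 3.92 and 0.722 FPKM, differed widely between the PD0325901 replicates. Neither was called without either 4OHT + PD0325901 library, with an adjusted p of up to 0.141 for Bmp3 and 0.109 for Cdh23. The other 4 were Trp63, Svep1, Prokr1 and Dscam, with log2 fold changes from -2.65 to -2.55. Trp63 was not called without replicate 2 of either group (adjusted p up to 0.105). Without inhibitor 8 of the 10 were also called lower, and the exceptions were Cdh23 and Prokr1. Of these 8 calls, that of Dscam was lost when any 1 of its 4 libraries was left out (adjusted p up to 0.131) and that of Aspn without untreated replicate 2 (adjusted p = 0.0552).

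Of 30 proliferation genes, 0 were called in either comparison by limma at the 2-fold limit. Over all genes 3.65% were called higher and 1.44% lower with MEK blocked, and 5.32% and 6.32% without inhibitor. The 30 log2 fold changes with MEK blocked ran from -0.20 to 0.92, with a median of 0.20, and Top2a, a topoisomerase of dividing cells, had 139 and 119 FPKM before and 117 and 138 FPKM after deletion. At an adjusted p under 0.05 alone, 4 passed, Foxm1 (measured with 4933413G19Rik), Aurka, Plk1 and Ccna2, all higher and short of 2-fold. At that threshold 739 of all 11529 genes were higher. Of 20 p53 pathway genes 1 rose with MEK blocked, against 3.65% of all genes. It was Gdf15, a stress-induced growth factor, which went from 1.08 and 0.591 to 5.67 and 6.45 FPKM (log2 fold change 2.77 ± 0.40 SE, adjusted p = 0.00540). Cdkn1a (p21), a CDK inhibitor, had 51.4 and 62.4 FPKM before and 88.9 and 74.2 FPKM after deletion and did not pass the test, while without inhibitor it rose from 23.2 and 22.98 to 62.2 and 49.4 FPKM. Of 15 genes of the Atf4 response to amino acid stress, 2 rose with MEK blocked, against 3.65% of all genes. They were Slc3a2, a chain of amino acid transporters, from 156 and 132 to 256 and 334 FPKM, and Nupr1, from 36.0 and 47.8 to 83.8 and 150.0 FPKM. Neither was called under median-ratio scaling or without replicate 2 of either group (adjusted p up to 0.0830 and 0.194). Without inhibitor 5 of the 15 rose, against 5.32% of all genes, among them Slc3a2 and Nupr1. There Nupr1 was not called without either untreated library or 4OHT day 6 replicate 2 (adjusted p up to 0.137), and Slc3a2 was short of 2-fold without 4OHT day 6 replicate 2 (log2 fold change 0.95).

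**Figure D5:**
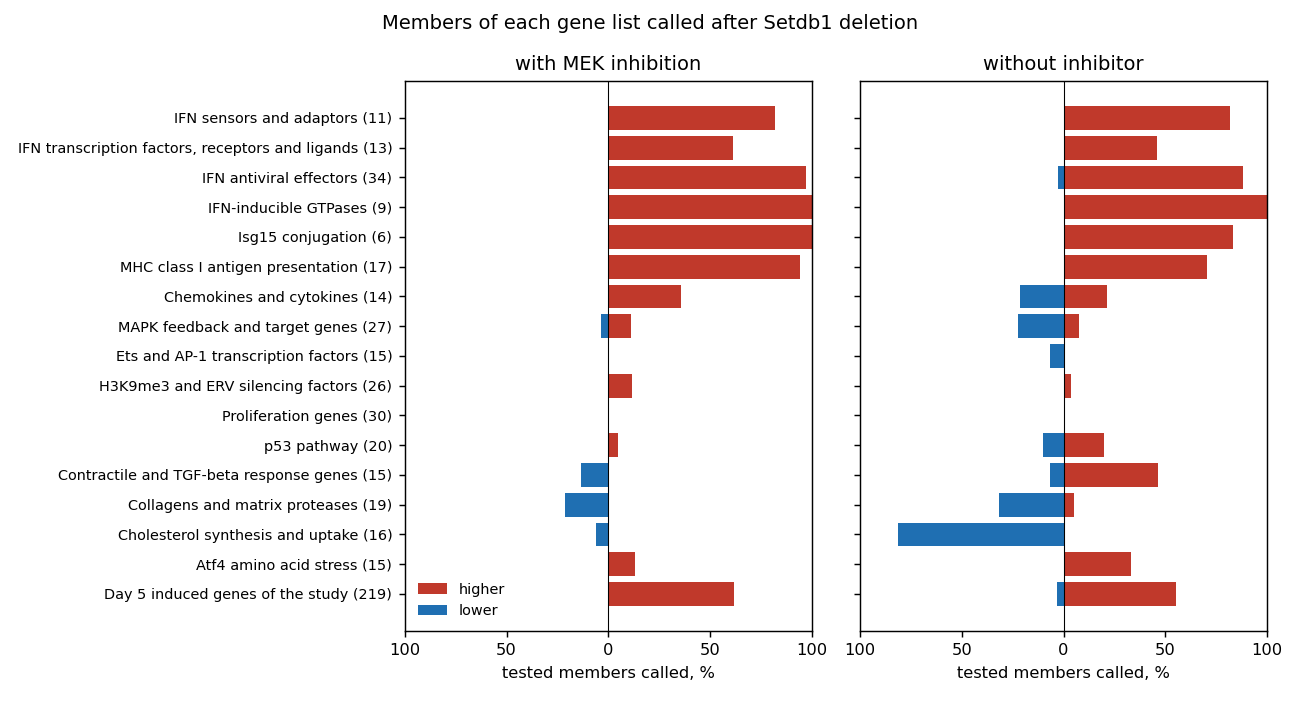
Percent of the tested members of each list (number in brackets) called higher (red, to the right) or lower (blue, to the left) after Setdb1 deletion, with MEK inhibition on the left and without inhibitor on the right. The IFN lists are mostly red in both panels, whereas the cholesterol list has 13 of 16 lower without inhibitor and 1 of 16 with it.

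Among the genes whose response to Setdb1 deletion differed between the settings, Trpm6, a magnesium channel, had the highest difference by the naming rule, with 5.51 and 4.505 FPKM untreated, 0.101 and 0.129 FPKM at 4OHT day 6, 0.0805 and 0.0703 FPKM with PD0325901 and 0.0337 and 0.0497 FPKM with 4OHT + PD0325901. It fell without inhibitor, and its level was as low in the inhibitor libraries as at 4OHT day 6. The imprinted genes H19 and Mest were also highest in the untreated libraries, and Mest had 80.1 and 76.4 FPKM untreated and 1.77 and 1.99 FPKM at 4OHT day 6 against 8.63 and 19.2 FPKM before and 4.86 and 4.25 FPKM after deletion with inhibitor. Serpinb1a, a protease inhibitor, was unlike these, as its starting levels were the same, 15.4 and 15.1 FPKM untreated and 15.3 and 16.4 FPKM with PD0325901. It fell to 3.03 and 1.62 FPKM without inhibitor and rose to 41.9 and 28.0 FPKM with MEK blocked, and the difference was 3.83 ± 0.39 (SE, adjusted p = 0.0115). Its rise was not called when any 1 of the 4 inhibitor libraries was left out (adjusted p up to 0.163). Maf, a transcription factor, fell from 40.8 and 42.1 to 5.26 and 6.07 FPKM without inhibitor and had 16.8 and 21.7 FPKM before and 15.98 and 19.7 FPKM after deletion with it (difference 2.75 ± 0.28 SE, adjusted p = 0.0115). Bmp4, a secreted growth factor, fell in both, from 83.4 and 74.4 to 4.21 and 4.24 FPKM without inhibitor and from 60.3 and 52.2 to 23.5 and 21.1 FPKM with it. The fall with MEK blocked was not called without 4OHT + PD0325901 replicate 2 (adjusted p = 0.0531).

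Among genes with a lower difference, Npr3, the clearance receptor of natriuretic peptides, rose without inhibitor from 0.536 and 0.788 to 2.15 and 3.32 FPKM and fell with MEK blocked from 9.07 and 6.56 to 2.92 and 2.70 FPKM. Its difference was -3.31 ± 0.42 (SE, adjusted p = 0.0193). The fall of Npr3 was not called when any 1 of the 4 inhibitor libraries was left out either (adjusted p up to 0.0916). Thbd (thrombomodulin), a receptor that checks clotting, fell with MEK blocked from 24.5 and 37.8 to 7.49 and 8.84 FPKM and had 0.946 and 0.953 FPKM before and 1.11 and 1.74 FPKM after deletion without. Grem1, a Bmp antagonist, rose without inhibitor from 20.8 and 21.6 to 77.0 and 87.9 FPKM and had 34.6 and 34.0 FPKM before and 24.7 and 32.1 FPKM after deletion with it. The promoters of Npr3 and Crispld2, the genes with the lowest differences, held 0 matches of the ISRE core and 0 of the AP-1 site TGANTCA, which 7.81% of all promoters hold. Of the promoters printed above, that of Rsad2 held 1 match of the AP-1 site and those of Ddx60 and Ifit1 held 0. Among genes with an entry, the AP-1 site was present in 12.9% of those called higher with MEK blocked and 5.56% of those called lower. It was present in 20.3% of IFN genes and 6.20% of all genes tested. Most calls of a difference were lost when any 1 library other than PD0325901 replicate 2 was left out. Of the 88 called, 10 were also called without untreated replicate 1 and 3 without untreated replicate 2, and of the 20 named by the rule 5 and 0 were. Of the 88, 20 were also called without PD0325901 replicate 1 and 68 without replicate 2, 30 and 39 without 4OHT + PD0325901 replicate 1 and 2, 34 and 35 without 4OHT day 6 replicate 1 and 2, and 54 under median-ratio scaling.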

How the data were processed

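RNA-seq values were the deposited FPKM per gene, which the authors made with Cufflinks after alignment to mm9 with TopHat2 2.0.12, keeping 1 position for a read with several. Each library was assembled on its own, so genes that any library joined were treated as 1 feature (576 features), and 383 features with a failed status or a 0 at a reassembled locus were left out. Of 22252 features, 11529 reached 1 FPKM in at least 2 of 10 libraries. They were tested with limma 3.58.1 in R 4.3.3 (trend, two-sided) on log2(FPKM + 0.1) together with 7 ERV families, over all 10 libraries, which share 1 estimate of the spread, with Benjamini-Hochberg adjustment. ERV loci had to lie with at least 50% of their length in an element. Depth was computed from the FPKM, its confidence interval and the length of single-exon genes. Named genes were Setdb1, list members, and the 10 highest and 10 lowest by fold change, and by difference of effects, above 0 in all libraries compared and with an adjusted p under 0.05 (and, for fold change, groups that do not overlap). The members and lists were chosen with earlier results of these data known. Alternatives covered pseudocount, filter, scaling, fit and single libraries. Tables were handled in Python 3.11.15 with pandas 2.3.3, and the fit was tested on simulated data. Some genes are not reported here.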

Additional observations from a re-analysis of the deposited data

Results flagged for a closer look

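The effect of Setdb1 deletion differed with and without PD0325901 by a test of the difference itself (limma, adjusted p under 0.05) for the following genes, given as the log2 fold change with inhibitor minus that without. Differences above 0 were those of Trpm6 at 4.26, H19 at 3.90, Serpinb1a at 3.83, Mest at 3.82 and Elmo1 at 3.27. Smaller differences of this sign were those of Prph at 3.02, Apol6 at 2.92, Bmp4 at 2.86, Podn at 2.85 and Maf at 2.75. A difference above 0 need not be a rise with MEK blocked. For Trpm6, H19, Mest, Bmp4, Podn and Maf the log2 fold change was below 0 in both settings and further below 0 without inhibitor. Differences below 0 were those of Npr3 at -3.31, Crispld2 at -2.82, the joined locus of 9430076C15Rik and Creb5 at -2.60, Thbd at -2.40 and Ltbp2 at -2.30. Of the same sign were Grem1 at -2.24, Acta2 at -2.04, Wnt2b at -2.04, Tnc at -1.76 and Cnn1 at -1.68. VL30 U3 class III differed by -3.81 and class IV by -4.26. Of the 20 genes, 5 were called without untreated replicate 1 and 0 without untreated replicate 2.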

How the results depend on the processing

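With 2 libraries per group, calls depended on the settings more than directions did. For 4OHT + PD0325901 against PD0325901 (421 higher, 166 lower), 274 and 79 genes were called with no filter on low values, 203 and 33 in a fit of the 4 libraries alone, and 739 and 339 with no fold limit. Leaving out 1 library at a time gave 265 to 390 higher and 91 to 233 lower. Without inhibitor (613 and 729), a pseudocount of 1 gave 401 and 485, no fold limit gave 1537 and 1546, and leaving out 1 library gave 386 to 645 higher and 417 to 632 lower. The difference of effects (67 and 21) gave 33 higher with median-ratio scaling, 41 with quantile normalization, 29 and 13 with no filter, 28 and 11 in a fit of its 8 libraries, and 3 to 127 higher and 3 to 68 lower when 1 library was left out. The median of the IFN genes (3.92) was 2.99 with a pseudocount of 1, 3.53 with quantile normalization and 3.59 to 4.08 with 1 library left out. The median of the day 5 genes (1.97) was 2.13 with at least 5 FPKM, 1.34 with a pseudocount of 1 and 1.68 with quantile normalization. No named gene changed sign past its threshold under any alternative. The cause of these moves was not tested.

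No source ties the replicate numbers to a shared culture or day. Deviations of same-numbered libraries correlated at 0.284 between PD0325901 and 4OHT + PD0325901, 0.273 between PD0325901 and 4OHT day 6, 0.446 between 4OHT day 6 and 4OHT + PD0325901, and -0.0189 to 0.0165 between untreated and the others, so not every pair passed 0.1 and the numbers were not taken to pair the samples, although the 3 treated groups did deviate together. A fit with the replicate number as a block called 456 higher and 197 lower with MEK blocked and 85 and 31 for the difference. Among named genes it changed the call of the difference for Col6a1 and Col6a2, which passed (adjusted p = 0.0485 and 0.0344), and for Podn, which did not (adjusted p = 0.0546). Listing zeros as deposited (400 and 154) and leaving the untreated libraries out of the fit (361 and 127) were chosen after seeing the data. Depth limits genes near 0.1 FPKM, where the pseudocount sets the fold.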

Other observations

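Some genes were listed at 0 in libraries where their locus had been reassembled, and 383 features with such a 0 or a failed status were left out of the test. Ddit3 (CHOP), a stress factor downstream of Atf4, was among them, listed at 0 in both PD0325901 and both untreated libraries, at 75.8 and 102 FPKM with 4OHT + PD0325901 and at 44.6 and 87.1 FPKM at 4OHT day 6. Irf5 was listed at 0 in both PD0325901 libraries and at 12.2 and 15.3 FPKM with 4OHT + PD0325901. Oas1a, joined with Oas1g, had 0.293 and 0.214 FPKM with PD0325901 and 123 and 151 FPKM with 4OHT + PD0325901. Ifi35 had 28.0 and 26.6 FPKM with PD0325901 and 187 and 168 FPKM with 4OHT + PD0325901. These values carry no test.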
